A study of Mus musculus with 16 samples.

Results

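Shank3, Tox2, Vmn2r26, Ptprm and Aspa are 5 protein-coding genes whose transcripts were far more abundant in Tim-4+ than in Tim-4- tumor-associated macrophages (TAMs), and they are followed here library by library. They were chosen by their large fold changes in this comparison, 5 of the 55604 genes listed in the deposited counts and of the 16861 genes with enough counts to be tested. Their difference between the subsets is therefore a description, and no test of it is given. The genes were matched by symbol to the GENCODE M21 gene models on GRCm38, and all 5 passed the filter of at least 10 counts in at least 4 libraries.

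RNA was sequenced from Tim-4+ and Tim-4- TAMs of the peritoneal cavity of C57BL/6 mice that had carried ID8 tumors for 6 to 7 weeks. The methods give the study's mice as females of 6 to 8 weeks, and the labels name no genotype beyond Tim4+ or Tim4-. ID8 is a line of mouse ovarian cancer cells that spreads over the peritoneum. After most tumor cells had been removed on a density gradient, Tim-4+ TAMs were taken with an antibody to Tim-4 and beads, and Tim-4- TAMs were then taken from the remaining cells with beads against F4/80, a macrophage surface protein. The 8 libraries form 4 pairs numbered 793, 784, 783 and 779, each sequenced in 2 lanes whose counts were summed, so n = 4 in each subset, and the labels do not say how many mice stand behind a pair. Values below are given in that order of pairs, as counts scaled to library size (CPM) with edgeR's TMM factors.

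Tim-4, the product of Timd4, binds phosphatidylserine on dying cells and marks macrophages that have long been resident in a tissue. The 5 genes are best known outside macrophages. Shank3 is a scaffold of the postsynaptic density that links glutamate receptors to actin through Dlgap and Homer proteins. Tox2 is a nuclear protein with a high mobility group box, of the family of the T cell regulator Tox. Vmn2r26 is a receptor of vomeronasal sensory neurons, of the class of G protein-coupled receptors that also holds the calcium-sensing and taste receptors. Ptprm is a receptor-type tyrosine phosphatase whose outer part binds the same protein on a neighboring cell, and it sits at contacts with cadherins and catenins. Aspa splits N-acetylaspartate into acetate and aspartate, and is known from oligodendrocytes.

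The sequence before the start sites is set out first, and the starts fall into separate kinds. Shank3 lies on chromosome 15 from 89499623 to 89560261, plus strand, Tox2 on chromosome 2 from 163203125 to 163324170, plus strand, and Vmn2r26 on chromosome 6 from 124024568 to 124065806, plus strand. Ptprm lies on chromosome 17 from 66666947 to 67354457, minus strand, and Aspa on chromosome 11 from 73304992 to 73329596, minus strand. The stretches are from RefSeq on GRCm38.p6 and cover chr15:89499358-89499607 for Shank3, chr2:163202877-163203124 for Tox2, chr17:67354460-67354709 for Ptprm, chr6:124024508-124024567 for Vmn2r26 and chr11:73324638-73324887 for Aspa, on the strand of each gene. They were cut where a GENCODE exon begins, which leaves 60 bases for Vmn2r26. Capitals mark each CpG, a C followed by a G.
Shank3: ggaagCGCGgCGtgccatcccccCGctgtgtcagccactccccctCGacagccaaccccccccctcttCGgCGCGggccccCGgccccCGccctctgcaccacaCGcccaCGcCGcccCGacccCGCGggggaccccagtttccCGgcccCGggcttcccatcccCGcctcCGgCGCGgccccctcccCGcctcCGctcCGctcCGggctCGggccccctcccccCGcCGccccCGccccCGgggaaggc
Tox2: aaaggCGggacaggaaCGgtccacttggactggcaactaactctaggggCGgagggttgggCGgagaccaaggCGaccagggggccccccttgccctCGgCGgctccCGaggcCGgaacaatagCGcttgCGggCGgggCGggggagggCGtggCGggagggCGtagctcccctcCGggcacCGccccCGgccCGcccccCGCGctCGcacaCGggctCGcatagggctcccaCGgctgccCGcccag
Ptprm: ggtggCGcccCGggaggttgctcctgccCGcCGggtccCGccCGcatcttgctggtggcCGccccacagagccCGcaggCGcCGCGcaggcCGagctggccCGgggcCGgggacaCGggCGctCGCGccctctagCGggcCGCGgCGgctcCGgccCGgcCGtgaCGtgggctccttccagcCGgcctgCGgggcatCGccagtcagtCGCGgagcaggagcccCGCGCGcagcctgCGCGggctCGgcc
Vmn2r26: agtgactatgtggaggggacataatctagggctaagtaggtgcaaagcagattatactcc
Aspa: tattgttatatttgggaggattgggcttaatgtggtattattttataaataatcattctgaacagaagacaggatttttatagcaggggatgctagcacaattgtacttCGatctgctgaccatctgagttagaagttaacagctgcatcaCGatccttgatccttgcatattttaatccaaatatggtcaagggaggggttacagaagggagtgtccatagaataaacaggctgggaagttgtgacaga

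Over the full 250 bases before the RefSeq start, Shank3, Tox2 and Ptprm held 31, 27 and 37 CpG, and Vmn2r26 and Aspa held 3 and 2. The G and C content was 82.4% for Shank3, 75.2% for Tox2 and 81.2% for Ptprm, against a median of 52.4% over 32851 windows of the same length before RefSeq starts. It was 41.6% for Vmn2r26 and 38.8% for Aspa. The start used for Tox2 was the one of its 5 RefSeq starts nearest to the GENCODE start, and the other 4 windows held 35, 19, 5 and 5 CpG. The RefSeq start of Aspa lies 4959 bases inside the GENCODE gene, so for Aspa the stretch is an internal start. Motifs of factors known from macrophages were searched on both strands. For GATA factors the letters were AGATAA, its form with a last G (AGATAG), and both of these with T first (the forms TGATAA and then also TGATAG). For the factor PU.1 they were GAGGAA. For the AP-1 factors they were TGANTCA, and for nuclear receptors the core word AGGTCA. The 5 windows held a single match. It was TGATAA on the minus strand of Vmn2r26, 14 to 9 bases before the RefSeq start and outside the printed stretch. That RefSeq start lies 190 bases inside the GENCODE gene, so the match lies within the annotated gene and not before it. The shares of all windows with a match were 26.5% for GATA, 23.3% for PU.1, 6.75% for AP-1 and 14.0% for the nuclear receptor word.

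Each library held 53527928 to 69594245 counts on genes, and the floor of 3 counts corresponded to 0.0431 to 0.0560 CPM, for counting error only. Timd4, which checks the sort, was 1161, 1744, 524 and 1166 CPM in Tim-4+ TAMs and 85, 11.1, 22.3 and 1.97 CPM in Tim-4- TAMs. The Tim-4- library of pair 793 held the most Timd4, at 7.32% of its Tim-4+ partner, against 0.638%, 4.25% and 0.169% in the other pairs. Its log2 deviation from the Tim-4- mean was 2.57, but that of pair 779 was -2.84, so Timd4 alone does not single out pair 793. Each member is given below with and without pair 793. Macrophage markers (Adgre1, Csf1r, Cd68, Mertk, Itgam, Lyz2 and Mrc1) were present in every library, summing to 43065 to 55630 CPM in Tim-4+ and 20681 to 33265 CPM in Tim-4- TAMs. Lyz2 made up most of the sum (39793 and 21178 CPM on average), while Mrc1 went the other way in each pair (log2 fold change -1.09, adjusted p = 0.0115). The 10 mesothelial and epithelial markers (Msln, Upk3b, Wt1, Krt19 and 6 more) were all lower on the Tim-4+ side (10 of 10 with an adjusted p under 0.05), with sums of 111, 200.3, 411 and 230.3 CPM in Tim-4+ and 439, 1302, 931 and 1983 CPM in Tim-4- TAMs. In bulk samples, a smaller share of a cell type and less RNA per cell cannot be told apart.

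Shank3 had the steepest difference of the 5. Its level was 63.5, 31.0, 5.89 and 24.0 CPM in Tim-4+ TAMs, or 31.1 ± 24.1 CPM (SD, n = 4). In Tim-4- TAMs it was 8.87, 0.301, 0.421 and 0.184 CPM, or 2.44 ± 4.29 CPM (SD, n = 4), which rested on 592, 22, 33 and 12 counts. Shank3 was higher in Tim-4+ TAMs in every pair, but the subsets overlapped, since the Tim-4+ library of pair 783 lay below the Tim-4- library of pair 793. The fitted log2 fold change was 4.84 (SE 0.80), rank 6 among the 16861 genes, and 5.80 without pair 793. The log2 ratio within a pair ran from 2.84 to 6.79.

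Tox2 followed with separate subsets. It was 109.8, 38.8, 26.1 and 53.9 CPM in Tim-4+ TAMs, or 57.2 ± 36.9 CPM (SD, n = 4), and 14.6, 1.08, 2.35 and 1.90 CPM in Tim-4- TAMs, or 4.99 ± 6.44 CPM (SD, n = 4). The lowest Tim-4+ library was above the highest Tim-4- library. The fitted log2 fold change was 4.05 (SE 0.42), rank 20, and 4.48 without pair 793. Markers of T and natural killer cells, where Tox genes are best known, summed to 0.666 to 2.54 CPM in Tim-4+ TAMs over the 8 markers. In Tim-4- TAMs they summed to 4.19 to 10.5 CPM. Most of the Tim-4- sum was Cd4, which averaged 4.80 CPM there and 0.813 CPM in Tim-4+ TAMs. Cd3e had 0 to 20 counts in a library. The part of such cells in the Tox2 counts was not tested.

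Vmn2r26, the vomeronasal receptor, was 53.9, 66.4, 6.91 and 48.9 CPM in Tim-4+ TAMs, or 44.0 ± 25.8 CPM (SD, n = 4). In Tim-4- TAMs it was 10.03, 2.54, 0.548 and 1.35 CPM, or 3.62 ± 4.35 CPM (SD, n = 4). Within each pair Tim-4+ was the higher, and 1 Tim-4+ library, of pair 783, fell below the Tim-4- library of pair 793. The fitted log2 fold change was 3.99 (SE 0.49), rank 24, and 4.56 without pair 793. The 8 neuron markers, of which Nefl had 0 counts throughout and Stmn2 at most 1 count in a library, summed to 7.24 to 13.2 CPM in Tim-4+ and 6.83 to 10.5 CPM in Tim-4- TAMs. Tubb3 led that sum, at 318 to 758 counts in a library (log2 fold change 0.28, adjusted p = 0.363). Map2 had 0 to 207 counts in a library, most in the Tim-4- library of pair 783 (2.64 of the 6.83 CPM there). It was lower in Tim-4+ TAMs (log2 fold change -3.36, SE 0.89, adjusted p = 0.0385 by edgeR). Rbfox3 went the way of Vmn2r26, with 41, 7, 8 and 14 counts in Tim-4+ and 10, 1, 7 and 2 counts in Tim-4- libraries. Its mean was 0.360 against 0.0709 CPM, with too few counts to be tested. Snap25, Syt1 and Elavl4 had at most 10 counts in a library. The part of neurons in the Vmn2r26 counts was not tested.

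Ptprm, the adhesion phosphatase, varied least. It was 88.6, 72.5, 60.9 and 91.4 CPM in Tim-4+ TAMs, or 78.3 ± 14.3 CPM (SD, n = 4), and 32.7, 13.3, 16.6 and 15.3 CPM in Tim-4- TAMs, or 19.5 ± 8.94 CPM (SD, n = 4). The subsets did not overlap, and the highest Tim-4+ library was 1.5 times the lowest, against 10.8 times for Shank3. The fitted log2 fold change was 2.08 (SE 0.20), rank 229, and 2.31 without pair 793. Ptprm is also known from endothelium. The 7 endothelial markers summed to 7.28 to 18.9 CPM in Tim-4+ and 19.9 to 56.9 CPM in Tim-4- TAMs. Most of each sum was Esam, at 7.80 and 32.1 CPM on average (log2 fold change -2.01, adjusted p = 0.0237 by edgeR). Cdh5, Vwf and Kdr did not pass (adjusted p = 0.106, 0.106 and 0.341 by edgeR). Cldn5 was at 0 counts and Tie1 at 0 to 3 counts in every library. The part of endothelial cells in the Ptprm counts was not tested.

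Aspa, the deacylase, was 58.8, 97.8, 18.5 and 89.2 CPM in Tim-4+ TAMs, or 66.1 ± 35.9 CPM (SD, n = 4). In Tim-4- TAMs it was 18.5, 10.7, 7.25 and 9.44 CPM, or 11.5 ± 4.88 CPM (SD, n = 4). The Tim-4+ library of pair 783 and the Tim-4- library of pair 793 met at the same level, and in the other libraries Tim-4+ was above. The fitted log2 fold change was 2.37 (SE 0.38), rank 158, and 2.62 without pair 793. Of the oligodendrocyte markers, Mobp had 0 counts and Mog 0 to 7 counts in every library, and the 5 markers summed to 49.96 to 66.1 CPM in Tim-4+ and 64.8 to 72.1 CPM in Tim-4- TAMs, most of it Mbp. The study also used a primer pair for Aspa in quantitative PCR, which shows the part of the transcript that was read there. It spans 124 bases of 3 Aspa transcripts and matched no other gene, and the primers were
Aspa forward: ggctccattaccctgctctgtt
Aspa reverse: tctaaggacaccgtgaggctga

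**Figure D1:**
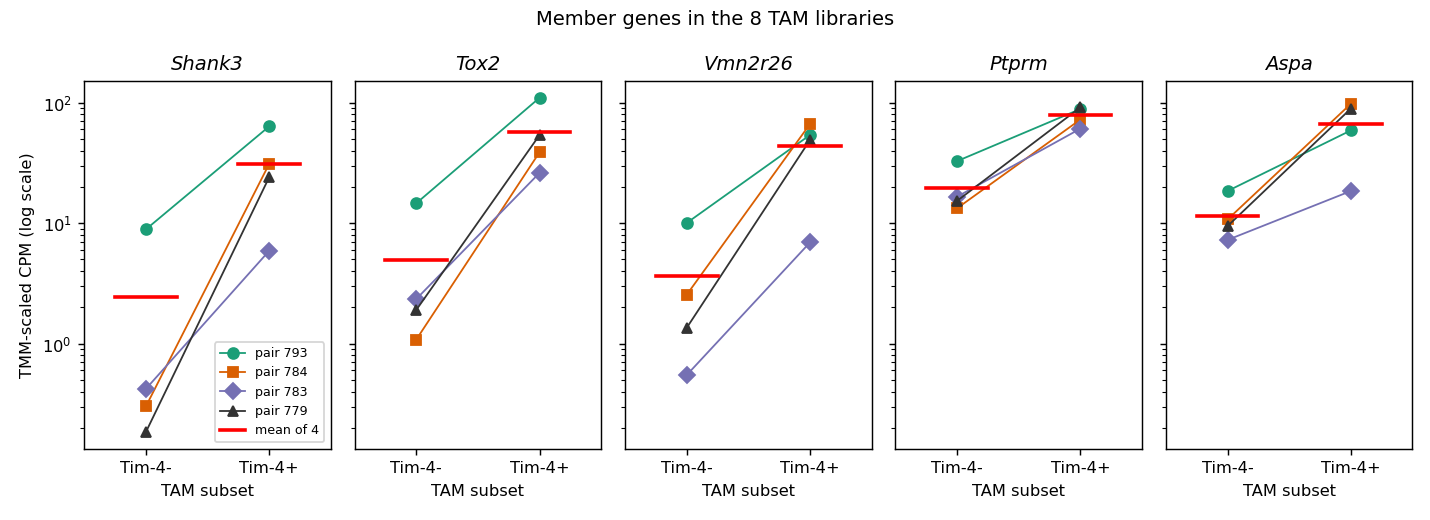
TMM-scaled CPM (log axis) of each member in the Tim-4- and Tim-4+ library of each of the 4 pairs, joined by a line per pair, with a red bar at the mean of 4. Every line rises from Tim-4- to Tim-4+, and pair 793 has the highest Tim-4- level of all 5 genes.

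All 5 members were higher on the Tim-4+ side of all 4 pairs, as were 22.4% of the genes tested, and the members were picked for it. Tox2 and Ptprm were 2 members without overlap between the subsets, which held for 6.84% of all genes tested in that direction. Per kilobase of exon, the mean level in Tim-4+ TAMs was 16.8 ± 10.9 CPM for Tox2, 11.1 ± 6.03 for Aspa, 8.87 ± 1.62 for Ptprm, 5.46 ± 3.20 for Vmn2r26 and 3.38 ± 2.62 for Shank3 (SD, n = 4), and each mean differed from the next in order by less than the larger of their SDs, except for Ptprm and Vmn2r26, whose means lay further apart than either SD. The median of the 13205 protein-coding genes tested was 4.30 CPM per kilobase in Tim-4+ TAMs. On that scale the members lay between the 45.1 percentile, for Shank3, and the 80.8 percentile, for Tox2. In Tim-4- TAMs they lay between the 10.95 percentile, for Shank3, and the 34.0 percentile, for Ptprm. The steep ratio of Shank3 thus came from a level near the bottom in Tim-4- TAMs, beside a middling level in Tim-4+ TAMs.

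The members shared 1 extreme library in each subset. The Tim-4+ library of pair 783 was the lowest of the Tim-4+ libraries for 5 of 5 members and for Timd4, while it was the lowest for 29.2% of all genes tested. The Tim-4- library of pair 793 was the highest of the Tim-4- libraries for 5 of 5 members and for Timd4, and for 22.8% of all genes tested. The other extremes were not shared. The highest Tim-4+ library was that of pair 793 for 2 members, of pair 784 for 2 and of pair 779 for 1, and the lowest Tim-4- library that of pair 784 for 2, of pair 783 for 2 and of pair 779 for 1. The mesothelial and epithelial markers stood the other way in these libraries, highest among Tim-4+ in pair 783 (411 CPM) and lowest among Tim-4- in pair 793 (439 CPM). Their part in the members' levels was not tested.

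The level in Tim-4- TAMs as a percent of the paired Tim-4+ level gave the same order of pairs for Timd4, Shank3, Vmn2r26 and Ptprm. For Shank3 it was 14.0%, 0.971%, 7.15% and 0.767% in pairs 793, 784, 783 and 779. Shank3 came nearest to Timd4 in pairs 784, 783 and 779, with less than 1% in pairs 784 and 779, and Tox2 came nearest in pair 793. For Tox2 it was 13.3%, 2.78%, 8.97% and 3.53%, and for Vmn2r26 18.6%, 3.83%, 7.93% and 2.76%. Ptprm kept more, with 37.0%, 18.3%, 27.2% and 16.7%, and so did Aspa, with 31.4%, 10.96%, 39.3% and 10.6%. In every pair each member's percentage was above that of Timd4.

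**Figure D2:**
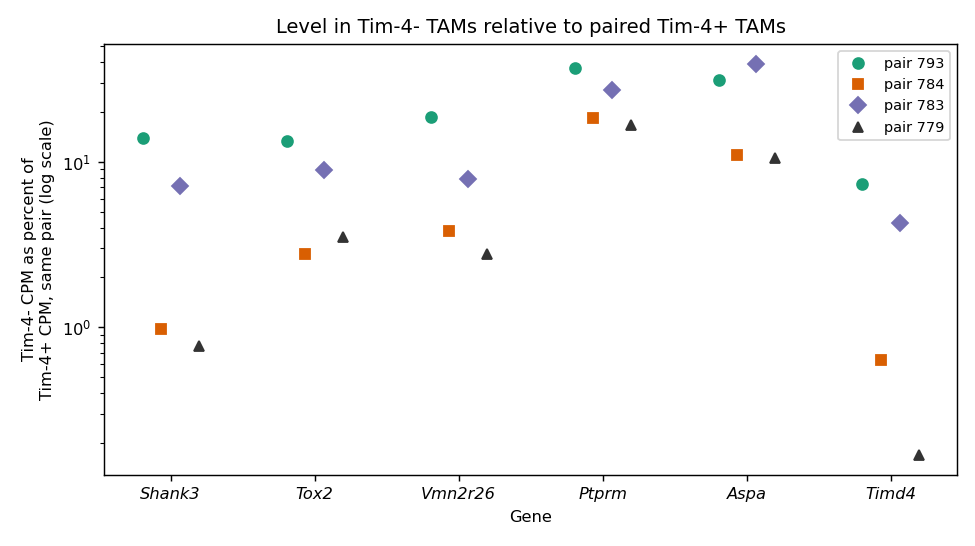
Tim-4- CPM as a percent of Tim-4+ CPM in the same pair (log axis) for the 5 members and Timd4, 1 point per pair. Pairs 793 and 783 lie above pairs 784 and 779 for every gene, and Timd4 is the lowest gene in each pair, down to 0.169% in pair 779.

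Once the subset means were removed, the members fell into groups in how they deviated over the 8 libraries. The deviations of log2 CPM had a Pearson r of 0.96 for Tox2 with Ptprm, 0.93 for Shank3 with Tox2, 0.93 for Shank3 with Ptprm and 0.91 for Vmn2r26 with Aspa. The other 6 gene couples had r between 0.50, for Tox2 with Aspa, and 0.82, for Shank3 with Vmn2r26. Shank3, Tox2 and Ptprm, the members with CpG-rich starts, are the first group, and Vmn2r26 and Aspa, with few CpG, the other. The groups were drawn from these same r, and a link to the CpG of the starts was not tested. The start classes are also unsure, since the Aspa window is an internal start and other Tox2 windows held as few as 5 CpG. These r describe 8 libraries that share their pairs, scaling and depth, and pairs 793 and 783 carry most of the deviations. The groups parted in pair 784. In its Tim-4- library the deviation was -1.14 log2 units for Shank3, -1.40 for Tox2 and -0.45 for Ptprm, against 0.27 for Vmn2r26 and -0.0097 for Aspa. In its Tim-4+ library it was 1.001 for Vmn2r26 and 0.82 for Aspa, against 0.43 for Shank3, -0.35 for Tox2 and -0.093 for Ptprm.

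**Figure D3:**
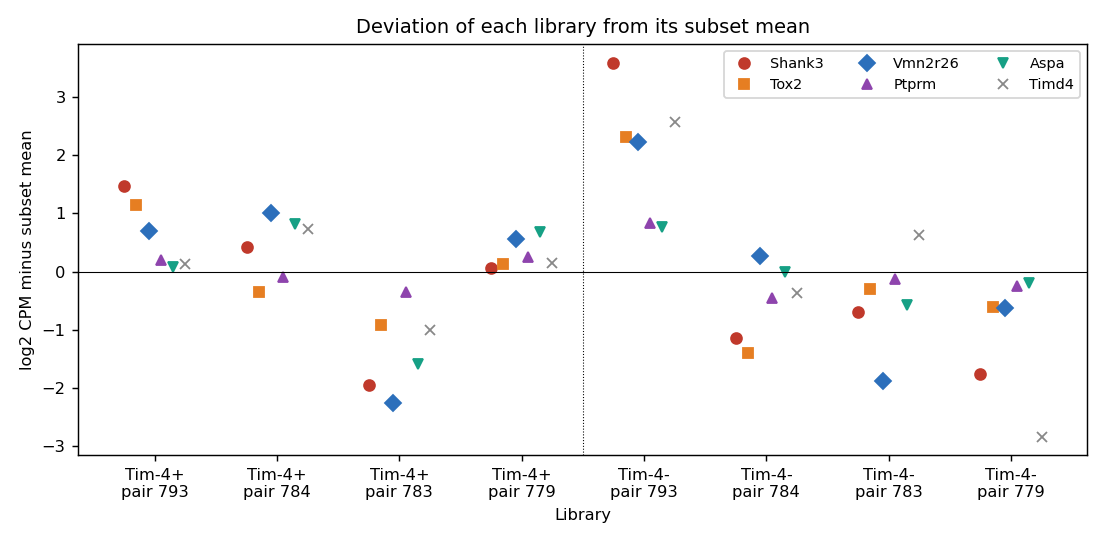
Deviation of log2 CPM from the mean of its subset in each of the 8 libraries for the 5 members and Timd4. The Tim-4+ library of pair 783 is below 0 and the Tim-4- library of pair 793 above 0 for every gene, with Shank3 at 3.60.

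Over all 8 libraries, the genes most like each member in log2 CPM were found among 13014 genes that averaged 1 CPM or more, members left out. For Shank3 they were Emilin2 (r 0.99, 3542 CPM in Tim-4+ and 1900 in Tim-4- TAMs), the transcription factor gene Mlxipl and Ltbp1, which binds latent TGF-beta. For Tox2 they were 1700006J14Rik, Cgnl1, which encodes a cell junction protein, and Acpp, and for Ptprm the cell cycle inhibitor gene Cdkn2a, the pseudogene Rab7-ps1 and the lipoxygenase gene Alox15 (6303 CPM in Tim-4+ and 1603 in Tim-4- TAMs). For Vmn2r26 they were Erc2 and Ryr2, genes of the active zone and of calcium release, and Cdkn1a. For Aspa they were Cd5l (2390 CPM in Tim-4+ and 385 in Tim-4- TAMs), Hgd, an enzyme of tyrosine breakdown, and the coagulation factor gene F10. The r of these 15 genes ran from 0.985 to 0.995, and that of Timd4 with the members from 0.878 to 0.956. All of them carry the difference between the subsets, so r values this high describe likeness only.

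The comparison with the paralogues asked whether the difference belongs to a family or to 1 gene of it. It used edgeR's quasi-likelihood test, with p adjusted over all 16861 genes by the Benjamini-Hochberg method. By edgeR, none of the 9 listed paralogues passed an adjusted p of 0.05, and 3 of them, Tox, Tox3 and Ptprt, had at most 2 counts in any library and were not tested. Of the 6 tested, 2 had an unadjusted p under 0.05 (Tox4 and Ptprk), and DESeq2 with the block called 1, Ptprk. Of all genes tested, 8.97% were higher and 8.43% lower in Tim-4+ TAMs by that adjusted p, so 0 of 6 is near the background. With a 2-fold minimum added, the shares were 3.80% and 5.79%.

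Shank1 and Shank2, the other postsynaptic scaffolds of the family, were low and on the other side. Shank1 was at 39, 54, 76 and 66 counts in Tim-4+ and 46, 287, 273 and 104 counts in Tim-4- TAMs, a log2 fold change of -0.81 (SE 0.41, adjusted p = 0.205). Shank2 had 7, 25, 5 and 0 counts in Tim-4+ and 7, 69, 40 and 20 counts in Tim-4- TAMs (log2 fold change -1.58, SE 0.85, adjusted p = 0.234). Per kilobase of exon in Tim-4+ TAMs, Shank3 was at 3.38, Shank1 at 0.111 and Shank2 at 0.0172 CPM. In Tim-4- TAMs the means of Shank3 and Shank1 were 0.266 ± 0.467 and 0.230 ± 0.146 CPM per kilobase (SD, n = 4). The mean of Shank3 rested on pair 793, where it had 592 counts and Shank1 had 46. In pairs 784, 783 and 779 Shank1 led instead, since Shank3 had only 22, 33 and 12 counts there.

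In the Tox family, Tox and Tox3 had 0 or 1 count in every library, at or under the floor of 3 counts. Tox4, a widely expressed member, was the abundant relative. It averaged 110.2 ± 20.3 CPM (SD, n = 4) on the Tim-4+ side and 86.2 ± 6.08 CPM (SD, n = 4) on the Tim-4- side, with a log2 fold change of 0.34 (SE 0.12, adjusted p = 0.0828). Scaled by total counts its log2 fold change turned to -0.02. Per kilobase, Tox4 was at 15.9 CPM in Tim-4+ TAMs, within the spread of Tox2 at 16.8 CPM, and at 12.4 CPM in Tim-4- TAMs, where Tox2 was at 1.47 CPM. Exons of Tox4 overlap those of other genes on the opposite strand, so its counts are uncertain.

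Among the phosphatases closest to Ptprm, Ptprk was at 8.56 ± 5.50 CPM (SD, n = 4) on the Tim-4+ side and 17.3 ± 7.99 CPM (SD, n = 4) on the Tim-4- side, with a log2 fold change of -1.11 (SE 0.38, adjusted p = 0.0963). The fitted sign was opposite to that of Ptprm, but the subsets overlapped. In pair 783 Ptprk was higher in the Tim-4+ library, as Ptprm was (16.4 against 12.6 CPM for Ptprk). Leaving out that pair, the 1 pair that went the other way, gave Ptprk an adjusted p of 0.000331 by edgeR. Ptpru stayed at 10 to 53 counts in a library (log2 fold change -0.06, SE 0.53, adjusted p = 0.950). Acy3, the aminoacylase closest to Aspa, was at 8.13 ± 0.805 CPM (SD, n = 4) on the Tim-4+ side and 6.14 ± 2.24 CPM (SD, n = 4) on the Tim-4- side, a log2 fold change of 0.46 (SE 0.24, adjusted p = 0.220).

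**Figure D4:**
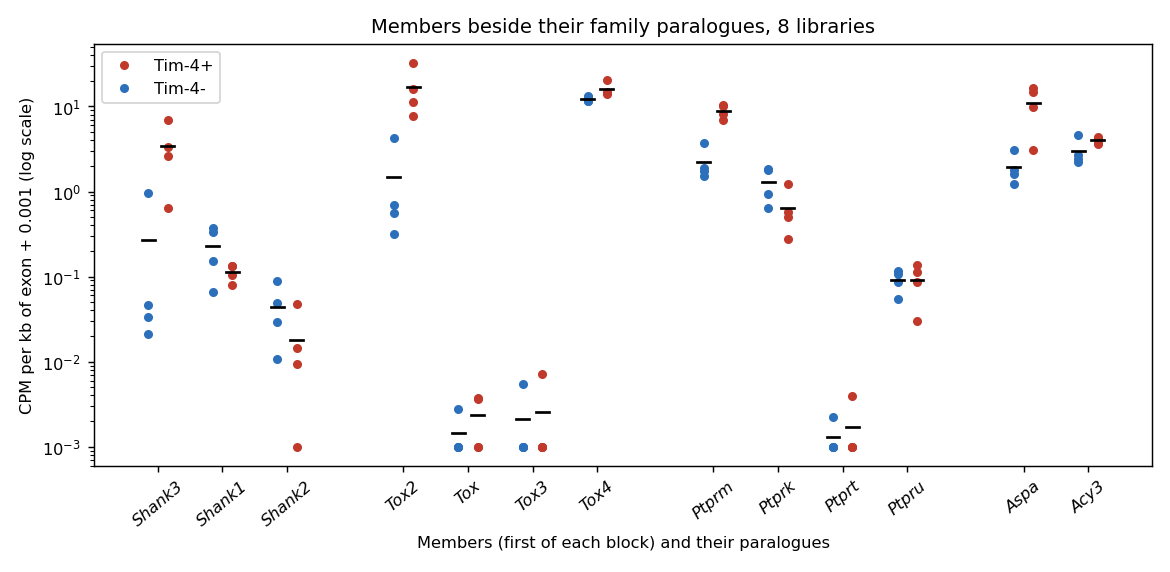
CPM per kilobase of exon plus 0.001 (log axis) in the 4 Tim-4+ and 4 Tim-4- libraries for 4 members, each followed by its paralogues, with a black bar at the mean. The paralogues Tox, Tox3 and Ptprt lie at the floor, Tox4 overlaps Tox2 in Tim-4+ TAMs, and Shank1, Shank2 and Ptprk have their means higher in Tim-4- TAMs.

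Vmn2r26 was the most counted gene of a large family. Of 120 other Vmn2r genes in the annotation, 42 had 0 counts in all libraries, and no other exceeded 253 counts in a library. The 18 others that were tested had log2 fold changes from -1.31 (Vmn2r11) to 1.12 (Vmn2r24), with a median of 0.45, and 0 had an adjusted p under 0.05 by edgeR or by DESeq2, or an unadjusted p under 0.05 by edgeR. The most counted of them were Vmn2r53 with 1281 counts over all libraries, Vmn2r115 and Vmn2r97, against 9601 for Vmn2r26. The rest were Vmn2r120, Vmn2r1, Vmn2r79, Vmn2r114, Vmn2r108, Vmn2r112, Vmn2r59, Vmn2r68, Vmn2r76, Vmn2r90, Vmn2r83, Vmn2r92 and Vmn2r73. Over all genes tested by edgeR, 8.97% were higher and 8.43% lower. Beyond the most counted, none of the 18 had more than 259 counts over all libraries (Vmn2r24), so their test has little power. Vmn2r26 took 32.8% to 81.0% of the family's counts in a Tim-4+ library and 3.63% to 42.6% in a Tim-4- library. Of the 50-base words of the Vmn2r26 transcripts, 17.1% also occur in other genes, chiefly Vmn2r25 and then Vmn2r23. Vmn2r25 had 3, 20, 2 and 5 counts in Tim-4+ and 3, 0, 0 and 0 counts in Tim-4- libraries. Vmn2r23 had 2, 2, 3 and 0 counts in Tim-4+ and 5, 4, 4 and 2 counts in Tim-4- libraries. Reads that matched several places were set aside, so the counts of such close relatives may be too low. No word of Shank3, Tox2 or Aspa was shared, and for Ptprm 4.54% were shared with 1 pseudogene that had 0 counts.

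The genes that carry the vomeronasal signal were at uneven levels. Trpc2, the channel of vomeronasal neurons, had 0 counts in all libraries, and Gnao1, the G protein subunit that pairs with these receptors, had at most 7 counts in a library, as did Gng8. Gnai2, a subunit found in most cells, led the 8 listed in abundance, at 940 CPM in Tim-4+ and 734 CPM in Tim-4- TAMs (log2 fold change 0.37, SE 0.15, adjusted p = 0.136). In Tim-4+ TAMs Gnb1, Plcb2 and Itpr3 were at 399, 115 and 78.9 CPM, also above the 44.0 CPM of Vmn2r26. Of the 8, 5 were tested and 0 passed an adjusted p of 0.05 by edgeR or DESeq2, with 2 at an unadjusted p under 0.05 by edgeR. Over all genes tested by edgeR, 8.97% were higher and 8.43% lower, so 0 of 5 is near the background. Of 5 other receptors of the class, Casr, Gprc6a, Tas1r1, Tas1r2 and Tas1r3, only Tas1r3 had enough counts to be tested (log2 fold change -0.20, SE 0.38, adjusted p = 0.759).

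Partners of the Shank scaffolds moved in both directions. Of 20 listed, 13 were tested, 2 were higher and 2 lower in Tim-4+ TAMs with an adjusted p under 0.05, and 9 did not pass, with a median log2 fold change of 0.059. Over all genes tested, 8.97% were higher and 8.43% lower by that rule, and the median was -0.0012. Baiap2, which joins Shank to actin, was the most abundant and rose by 0.88 on the log2 scale (SE 0.14, adjusted p = 0.00887), and Dlgap4, of the family that bridges Shank to the Dlg scaffolds, rose by 0.49 (SE 0.13, adjusted p = 0.037). Dlg2 (-2.22, SE 0.57, adjusted p = 0.0405) and the adhesion gene Nlgn2 (-1.29, SE 0.34, adjusted p = 0.0482) were lower in Tim-4+ TAMs. The synaptic partners Dlgap1, Dlgap2, Dlgap3, Homer2, Lrrc7, Nlgn1 and Nlgn3 had at most 9 counts in a library and were not tested, while Homer1 was at 30.4 and 28.5 CPM (log2 fold change 0.11, adjusted p = 0.585).

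Of 12 genes listed as acting on Tox genes or together with their products in T cells, all were tested, with a median log2 fold change of 0.065. With an adjusted p under 0.05, 3 were higher and 1 lower in Tim-4+ TAMs, against 8.97% and 8.43% of all genes tested. The immediate early receptor genes Nr4a1 (log2 fold change 1.31, SE 0.16, adjusted p = 0.00609) and Nr4a2 (1.43, SE 0.30, adjusted p = 0.0266) rose, and Nr4a3 had 1.31 (SE 0.42, adjusted p = 0.0812). The calcineurin gene Ppp3ca rose by 0.60 (SE 0.12, adjusted p = 0.0174). Nfatc2, whose product calcineurin activates, was lower (-1.28, SE 0.26, adjusted p = 0.0221), and Nfatc1 had 0.49 (SE 0.15, adjusted p = 0.0611). Nr4a1 led the list in abundance, at 863 CPM in Tim-4+ and 365 CPM in Tim-4- TAMs.

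Of 11 adhesion and signaling partners of Ptprm, 10 were tested and 0 passed an adjusted p of 0.05 by edgeR (median log2 fold change -0.24), 4 had an unadjusted p under 0.05, and DESeq2 called 1, the cadherin gene Cdh5. The scaffold gene Rack1 was the most abundant (949 CPM in Tim-4+ and 889 CPM in Tim-4- TAMs), and the catenin genes Ctnna1 and Ctnnb1 had log2 fold changes of -0.04 and -0.11. Of 12 genes around N-acetylaspartate, 8 were tested, 1 was higher and 1 lower, with a median of -0.11. For both lists, the shares over all genes tested were 8.97% higher and 8.43% lower. Acy1, an aminoacylase, rose by 0.84 (SE 0.22, adjusted p = 0.0415), and Acss1, which activates acetate in mitochondria, was lower (-0.62, SE 0.13, adjusted p = 0.0181). Nat8l, the synthase of N-acetylaspartate and so the source of the substrate of Aspa, was at 31.1 CPM in Tim-4+ and 19.4 CPM in Tim-4- TAMs (log2 fold change 1.01, SE 0.31, adjusted p = 0.0714). Got1 and Got2 were the most abundant, Got2 in Tim-4+ TAMs (60.1 against 56.8 CPM) and Got1 in Tim-4- TAMs (68.0 against 62.0 CPM).

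**Figure D5:**
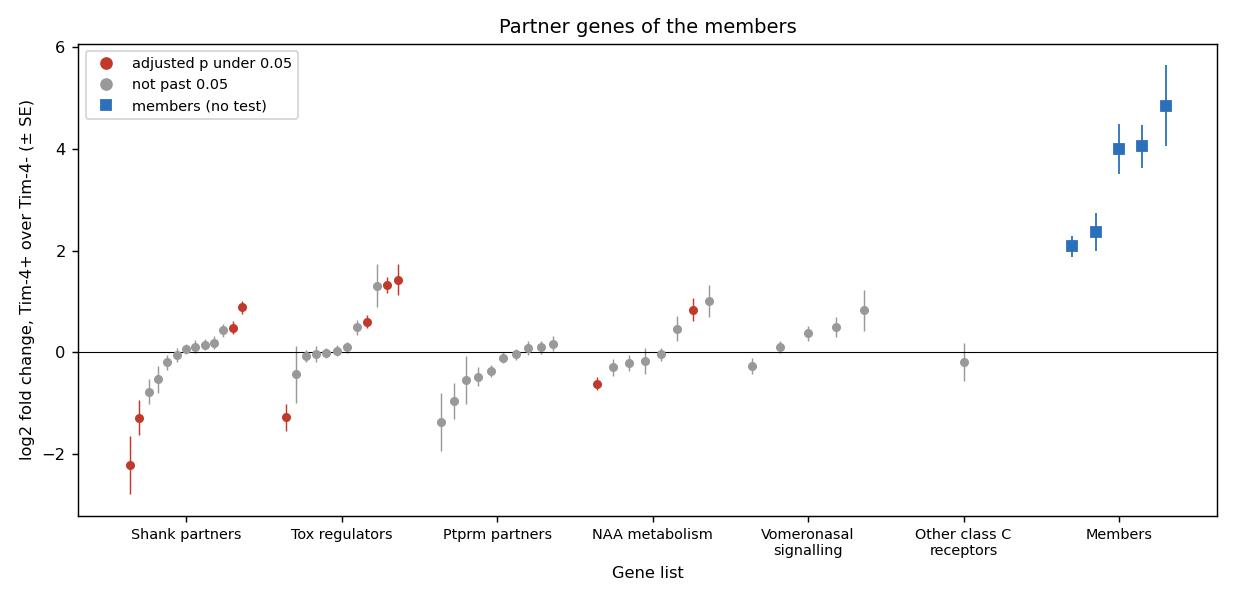
Fitted log2 fold change, Tim-4+ over Tim-4-, with its SE, for each tested gene of the 6 partner lists (red, adjusted p under 0.05) and for the 5 members, for which no test is given. The partner genes lie between -2.22 and 1.43, and the members between 2.08 and 4.84.

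These calls rested on the pairing and on single pairs. Over the 6 lists, 6 genes were higher and 4 lower in Tim-4+ TAMs in the paired fit, and 0 and 0 without the pair block. Of all genes tested, 8.97% were higher and 8.43% lower in the paired fit. Leaving out pair 793 gave 5 and 0, pair 784 gave 0 and 0, pair 783 gave 7 and 7, and pair 779 gave 2 and 0. Calls over all genes, with a 2-fold minimum, were likewise fewest without pair 784 and most without pair 783, so this instability was not particular to the partner genes.

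The neighbors of the members on the chromosome were taken by position alone after the data were seen, and moved unevenly. Of the 10 nearest tested protein-coding genes, 1 on each side, 3 were higher in Tim-4+ TAMs with an adjusted p under 0.05 and 0 lower, against 8.97% and 8.43% of all genes tested. Their log2 fold changes ran from -0.62 to 3.42, with a median of 0.38. Trpv3, a cation channel gene on the plus strand that ends 4.63 kilobases beyond the 3′ end of Aspa, had 39, 49, 11 and 43 counts in Tim-4+ and 3, 6, 6 and 2 counts in Tim-4- libraries. The fitted log2 fold change was 3.42 (SE 0.69, adjusted p = 0.0178), its subsets did not overlap, and its lowest Tim-4+ library was that of pair 783, as for Aspa. Cd163, a scavenger receptor gene 239 kilobases after Vmn2r26, rose by 1.15 (SE 0.25, adjusted p = 0.0255), but was highest in the Tim-4+ library of pair 783 (248 CPM), where Vmn2r26 was lowest. Arsa, 22.2 kilobases before Shank3, rose by 0.62 (SE 0.15, adjusted p = 0.0307), and Rabl2 on the other side had -0.06. Next to Tox2, Mybl2 and Oser1 had -0.62 and -0.05, and next to Ptprm, Rab12 and Lama1 had 0.14 and -0.54. Vmn2r24 and Olfr398 had 1.12 and 0.98 and did not pass. Of the 3 calls, that of Arsa was lost without pair 793 (adjusted p = 0.0865), those of Arsa and Cd163 without pair 784 (0.118 and 0.114) and without pair 779 (0.112 and 0.104).

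Gata6, the transcription factor gene of peritoneal resident macrophages, and genes linked to it were set beside the members. The paper counts Aspa, itself a member here, among the genes downstream of GATA6. It also reports Aspa, Cd5l, Ltbp1, Tgfb2 and Nt5e as more highly expressed in Tim-4+ TAMs, and GATA6 as enriched there by antibody staining. The values below are RNA. Gata6 was 147.6, 161, 67.3 and 152.8 CPM in Tim-4+ and 78.3, 86.9, 41.9 and 119.5 CPM in Tim-4- TAMs, and its lowest library in both subsets was that of pair 783. It rose by 0.71 (SE 0.12, adjusted p = 0.0122), far less than the members. Cd5l, a secreted inhibitor of cell death, rose by 2.49 (SE 0.37, adjusted p = 0.011), Ltbp1 by 2.35 (SE 0.37, adjusted p = 0.0127) and Tgfb2 by 1.91 (SE 0.30, adjusted p = 0.0128). Nt5e, the ectonucleotidase gene, had 0.71 (SE 0.26, adjusted p = 0.1099), so unlike the others it did not pass here, and it was higher in Tim-4+ TAMs in 3 of the 4 pairs. The call of Gata6 was lost without pair 793 (adjusted p = 0.0512) and without pair 784 (0.0755), that of Cd5l and Ltbp1 without pair 784 (0.0651 and 0.0732), and that of Tgfb2 without pair 793 (0.0563).

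Reads on other features within the members were few. The long noncoding gene Gm15609, which shares 271 exon bases with Shank3 on the opposite strand, had 16, 11, 4 and 1 counts in Tim-4+ and 0 counts in all Tim-4- libraries. The snoRNA gene Gm24843, inside an intron of Vmn2r26 on the opposite strand, had 24, 25, 1 and 28 counts in Tim-4+ and 10, 0, 0 and 0 counts in Tim-4- TAMs, so both were counted chiefly where their host was. Between the lanes of a library, the level of a member in lane 1 was 0.472 to 2.07 times that in lane 2 (median 1.01), with the lowest ratio for Shank3 and the highest for Vmn2r26, each in a Tim-4- library with few counts.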

How the data were processed

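RNA of paired TAM subsets (Tim-4+ and Tim-4-, 4 pairs) was depleted of ribosomal RNA, made into stranded libraries and sequenced paired end for 50 cycles. Per gene, the authors deposited raw counts of reads for 16 lanes, in whole numbers and not normalized. The submitters' processing notes name FastQC 0.11.3, TopHat2 2.0.13, Cufflinks and Cuffdiff 2.2.1, with the builds GRCm38 and mm10, while the study's methods give hg19 as the reference. The identifiers of 15 lanes are mouse Ensembl ones. The counter, and whether it used strand, are not given in the sources used here, so antisense and overlapping genes are uncertain. Rows that name no gene were left out. Relative to the gene counts of a lane they were 6.76% to 9.94% for reads on no feature, 4.87% to 5.63% for ambiguous reads and 11.2% to 36.4% for reads that aligned to several places. Both ends of the last share were lanes of the Tim-4- library of pair 779, at 36.4% in lane 1 and 11.2% in lane 2, and the cause was not tested.

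Lane 1 of the Tim-4- library of pair 793 is listed by gene symbol. It was joined to the other lanes by row order after Timd4, its first row, was put back, and 96.9% of 53618 comparable symbols matched at the same place. Identifiers were matched to GENCODE M21, and 98.4% were named. The lanes of a library differed with a chi-square per degree of freedom of 2.29 to 2.42 and were summed.

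The 16861 genes that reached 10 counts in 4 or more libraries were tested by edgeR 4.0.16 (R 4.3.3) with its quasi-likelihood test. The model held TMM factors (0.833 to 1.18) and a block for the pair, and p was adjusted by the Benjamini-Hochberg method. The SE is the absolute log2 fold change over the root of F. The study states that the subsets were paired, and with subset means removed, paired libraries correlated over genes at r of 0.471, 0.498, 0.408 and 0.277 in pairs 793, 784, 783 and 779. Nothing says that the pairs came from separate experiments, so p-values measure the spread between these samples. Log2 CPM used a prior count of 2. In simulated counts for the 16861 genes, 86.5% of 200 genes with a log2 change of 1.5 were recovered, and 3.89% of the calls were false. There every gene had the same dispersion and no library stood apart, unlike in the real counts. These shares are therefore not error rates of the calls given here.

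The members and the gene lists were chosen with earlier results of these data known. Genes named are the members, their paralogues, tested Vmn2r genes, up to 4 partner genes per list past an adjusted p of 0.05 and the most abundant one, the Gata6-linked list, the 3 genes most like each member, and Timd4. Chromosomal neighbors and other partner genes were named after their values were seen. A gene of the Shank partner list is not reported here, and the counts leave it out. Promoter windows are from RefSeq tables on GRCm38.p6. Alternatives were DESeq2 1.42.0 (size factors, and its own test with the block), total counts, no block, other count filters, lane 2 only, a join by symbol, and each pair left out. Leaving out the symbol-listed lane was added after the data were seen.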

Additional observations from a re-analysis of the deposited data

Results flagged for a closer look

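In groups of 4 libraries, a library was singled out when its gap to the nearest of the others passed Dixon's critical value as a share of the whole range, which chance gives in about 1 in 20 groups. Of 142 groups checked, 17 had such a library, and 12 of the 17 were the Tim-4- library of pair 793. These groups are not independent, since the genes most like a member share its libraries.

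Among the members, Shank3 was at 8.87 CPM in the Tim-4- library of pair 793, against 0.184 to 0.421 CPM in the other Tim-4- libraries. Tox2 was at 14.6 CPM there against 1.08 to 2.35, and Ptprm at 32.7 CPM against 13.3 to 16.6. Among genes linked to the members, Ltbp1 was at 331 CPM there against 90.6 to 121, Emilin2 at 3142 CPM against 1332 to 1613, Mlxipl at 384 CPM against 172 to 203, Cgnl1 at 452 CPM against 123 to 173 and Acpp at 5.79 CPM against 1.24 to 1.99. At low levels, 1700006J14Rik was at 0.570 CPM there against 0.082 to 0.107, Hgd at 0.630 CPM against 0.0921 to 0.178, Vmn2r115 at 2.68 CPM against 1.95 to 1.96 and Vmn2r83 at 0.300 CPM against 0.109 to 0.140.

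The other 5 lay in other libraries. Gata6 was at 67.3 CPM in the Tim-4+ library of pair 783, against 147.6 to 161 CPM in the other Tim-4+ libraries, and Cd163 was at 248 CPM there against 73.3 to 102. Dlgap4 was at 228.3 CPM in the Tim-4+ library of pair 784 against 175.6 to 176.7. Tox4 was at 140.5 CPM in the Tim-4+ library of pair 779 against 97.8 to 102.5, and Arsa at 61.3 CPM in the Tim-4- library of pair 784 against 97.3 to 99.2.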

How the results depend on the processing

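All 5 members kept their direction under every alternative and moved by less than the SD between pairs. With 1 pair left out, the log2 fold change ran from 4.22 to 5.80 for Shank3, 3.70 to 4.48 for Tox2, 3.57 to 4.56 for Vmn2r26, 1.91 to 2.31 for Ptprm and 2.06 to 2.70 for Aspa. Their median, 3.99, ran from 3.57 to 4.48.

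Counts of calls depended on the scaling, the block and single pairs, and the cause was not tested. The counts over all genes also needed at least a 2-fold change, while those of partner genes and paralogues used the adjusted p alone. By the adjusted p alone, 1512 of all genes tested were higher and 1421 lower in the main edgeR fit. With total counts as the scale, the median over all genes was -0.36 and there were 398 genes higher and 1938 lower, in place of 641 and 976. The higher and lower partner genes were then 3 and 15, in place of 6 and 4, and 1 paralogue, Ptprk, passed. Without the replicate block, 127 genes were higher and 80 lower, and 0 and 0 partner genes were. DESeq2 with the block called 1 paralogue, again Ptprk, and 10 higher partner genes. With no count filter, which tests more genes, 2 partner genes were lower. With 1 pair left out, which leaves fewer samples, 67 to 775 genes were higher and 51 to 1446 lower, 0 to 1 paralogues passed, and 0 to 7 partner genes were higher and 0 to 7 lower. The lowest counts of genes were those without pair 784, and the highest those without pair 783.

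Values near 0 changed sign. With 1 pair left out, Ptpru ran from -0.32 to 0.46, Vmn2r53 from -0.31 to 0.024, Vmn2r112 from -0.20 to 0.29, Vmn2r59 from -0.33 to 0.40, Vmn2r90 from -0.18 to 1.23, and Rabl2 from -0.20 to 0.057, and Vmn2r92 was -0.055 without pair 779. Scaled by total counts, Tox4 was -0.017, Rack1 -0.27, Vmn2r112 -0.33, Vmn2r59 -0.19, Vmn2r92 -0.29 and Rab12 -0.21. Ptpru was 0.014 without the block, Vmn2r53 was 0.086 in lane 2 only, and Vmn2r112 was -0.0063 without the symbol-listed lane. None of these passed an adjusted p of 0.05 in either form. Genes under the floor of 3 counts, such as Tox and Tox3, could not be compared at this depth.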
